A study of Mus musculus with 14 samples.

Results

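The genes described here are 39 genes of DNA replication: the 6 subunits of the MCM helicase, 6 partners that activate it, 4 genes of origin licensing, 6 genes of the sliding clamp and its loader, 8 of primase and the replicative polymerases, 2 of Okazaki fragment maturation, 3 of nucleotide supply, the 3 subunits of the single-strand DNA binding protein RPA, and the uracil glycosylase gene Ung. They were chosen by name, with earlier results of these data known, and all 39 were found among the 55487 genes of the count tables. Read pairs were counted per gene in 14 RNA sequencing libraries. LSK (Lin-Sca1+c-kit+) cells, the fraction that holds the stem cells, and LK (Lin-c-kit+) cells, the committed progenitors that the labels also call MP, were sorted from bone marrow whose blood-forming cells carried a heterozygous Jak2V617F allele (Mx1Cre; Jak2VF/+), an activating kinase mutation of myeloproliferative neoplasm. Mx1Cre is an interferon-inducible Cre that was switched on with pI-pC. By the study's account the induced marrow was transplanted into lethally irradiated C57BL/6 hosts, whose stroma lacks the allele, and treatment began 4 weeks later. Both treatment groups carried the same allele, so no wild-type LSK or LK library enters the comparisons. The hosts received PBS (3 libraries per population) or the inflammatory cytokine IL-1β at 0.5 μg per dose, 3 doses per week for 16 weeks (2 libraries per population). Mesenchymal stromal cells (MSC) were grown for 21 days from the marrow of C57BL/6 mice without the allele and exposed in culture to PBS or to 5 ng/ml IL-1β for 72 h (2 libraries each). Mice entered the study as young adults and were matched for age and sex. The labels do not state whether each library came from its own mouse or culture, so the p-values measure the spread between these libraries.

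Before a cell divides it copies its genome once, from many origins. Licensing factors (the origin recognition complex, Cdc6 and Cdt1) load the MCM helicase onto origins in G1. In S phase Cdc45, the GINS complex and Mcm10 turn the loaded helicase into an active one, primase and polymerase alpha lay down primers, and polymerases delta and epsilon extend them behind the clamp PCNA, which the RFC complex loads. Fen1 and Lig1 join the Okazaki fragments, RPA covers the exposed single strands, and ribonucleotide reductase and thymidylate synthase supply the nucleotides. Many of these genes are targets of E2F factors, which the retinoblastoma protein holds in check in resting cells. Long-term blood stem cells are mostly out of cycle, whereas committed progenitors divide often.

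Promoter sequences were not used to choose the genes. Many of these genes are known E2F targets, however, so E2F words in their promoters are no independent finding. RefSeq windows of 300 bases (250 before and 50 after an annotated start, GRCm38.p6) were found for 32 of the 39 genes, with 37 windows among them. Each was searched on both strands for 4 words of the E2F type, TTTCCCGC, TTTGGCGC, TTTCGCGC and TTTGCCGC, which can overlap each other on opposite strands. At least 1 of these words stood in the windows of 13 of 32 replication genes (40.6%), against 704 of all 27025 genes in the table (2.6%) and 2.3% of its 32851 windows. The share was 4 of 5 among the helicase subunits and 3 of 4 among the licensing genes, and no word was found for the nucleotide supply genes or RPA. Genes of mitosis showed another pattern: an E2F word stood in 1 of 18 (5.6%), whereas the CHR element TTTGAA, known from late cell cycle genes, stood in 13 of 18 (72.2%), against 5 of 32 replication genes (15.6%) and 20.2% of all genes. This too is no independent finding, as the element is known from genes of this kind. The CCAAT box was found in 65.6% of the replication genes, 88.9% of the mitosis genes and 41.1% of all genes. A match describes the letters of a window and not binding by a factor. Stretches before the start of 5 genes, picked after their values were seen, are printed. All 5 were chosen as genes with such a word before the start, and their calls between LK and LSK cells under PBS part ways. With genes picked this way neither is a finding about the words. Of these genes 2 helicase subunits were not called, 2 licensing genes were called higher and the polymerase gene Pola1 was called lower. Capitals mark the E2F words, 5′ to 3′ on the strand of the gene.
Mcm5: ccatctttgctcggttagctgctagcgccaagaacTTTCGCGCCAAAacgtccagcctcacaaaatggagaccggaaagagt
Mcm6: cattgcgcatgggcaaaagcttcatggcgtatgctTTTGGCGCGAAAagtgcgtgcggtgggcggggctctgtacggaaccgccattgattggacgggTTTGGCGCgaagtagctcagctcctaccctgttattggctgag
Cdc6: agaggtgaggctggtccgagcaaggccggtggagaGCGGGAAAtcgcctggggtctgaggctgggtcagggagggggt
Orc1: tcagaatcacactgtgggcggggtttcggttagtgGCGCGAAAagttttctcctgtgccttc
Pola1: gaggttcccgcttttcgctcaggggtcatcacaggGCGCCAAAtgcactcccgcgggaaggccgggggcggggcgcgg
The Mcm5 stretch lies at chr8:75109321-75109402 (+ strand) and holds 2 overlapping words. The Mcm6 stretch at chr1:128359710-128359850 (- strand) holds 3, of which 2 overlap. The Cdc6 stretch at chr11:98907978-98908055 (+ strand), the Orc1 stretch at chr4:108579392-108579453 (+ strand) and the Pola1 stretch at chrX:93632251-93632328 (- strand) hold 1 each. In GENCODE M21 the stretches of Mcm5, Mcm6 and Pola1 overlap no exon, that of Cdc6 overlaps 4 bases of a Cdc6 exon, and that of Orc1 overlaps 31 bases of a noncoding Orc1 transcript.

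Levels are given as CPM, counts scaled to the library total by the TMM method over the 10 LSK and LK libraries together and over the 4 MSC libraries on their own, and levels of different genes are compared as CPM per kb of exon. Library totals were 12172400 to 16271408 read pairs in LSK PBS, 4393233 and 8641124 in LSK IL-1β, 12804883 to 18544346 in LK PBS, 6367352 and 7652483 in LK IL-1β, 5834909 and 13155033 in MSC PBS, and 11681794 and 30871055 in MSC IL-1β. Among LSK and LK libraries the deepest of the IL-1β group held fewer read pairs than the shallowest of the PBS group, so depth and treatment cannot be told apart by the design. The labels of LSK and LK cells were checked against markers: the summed level of 10 stem cell markers was 1306 to 1845 CPM in LSK PBS and 450.4 to 623.2 CPM in LK PBS, and that of 12 erythroid progenitor markers 956.3 to 1116 and 5472 to 7316 CPM. The MSC libraries held 9 or 10 of 10 mesenchymal markers, among them Col1a1 at 405.9 to 1312 CPM, but also all 8 macrophage markers, with Lyz2 at 4803 to 20803 CPM and the macrophage receptor gene Csf1r at 683.3 to 2268 CPM. Lepr, a marker of marrow stroma, was at 0 in both MSC PBS libraries and at 0.164 and 0.529 CPM with IL-1β.

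In LSK cells of PBS-treated mice the replication genes spanned a wide range of levels per length. The clamp gene Pcna was highest with a mean of 183.7 CPM per kb, followed by the helicase subunits Mcm6 (161.6), Mcm3 (138.8), Mcm7 (138.2) and Mcm5 (123.8). The lowest was Orc1, the largest subunit of the origin recognition complex, at 5.60 CPM per kb. The order was similar in the other groups: Spearman's rho over the 39 genes was 0.932 between LSK PBS and LK PBS and 0.783 between LSK PBS and MSC PBS, a description in which gene length and mapping are shared by all points. Summed over the 39 genes the level was 7398 to 7783 CPM in LSK PBS, 8876 to 9055 CPM in LK PBS and 1352 and 1658 CPM in MSC PBS. The MSC libraries were scaled apart, so their levels are set beside the others only as values. Mean levels per length in LSK PBS were above those in MSC PBS for 38 of 39 genes, with a median ratio of 7.37 and the highest ratio, 29.5, for Pole, the catalytic subunit of polymerase epsilon. Pcna was the exception, at 347.2, 448.7 and 526.9 CPM in LSK PBS and 467.2 and 682.8 CPM in MSC PBS.

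**Figure D1:**
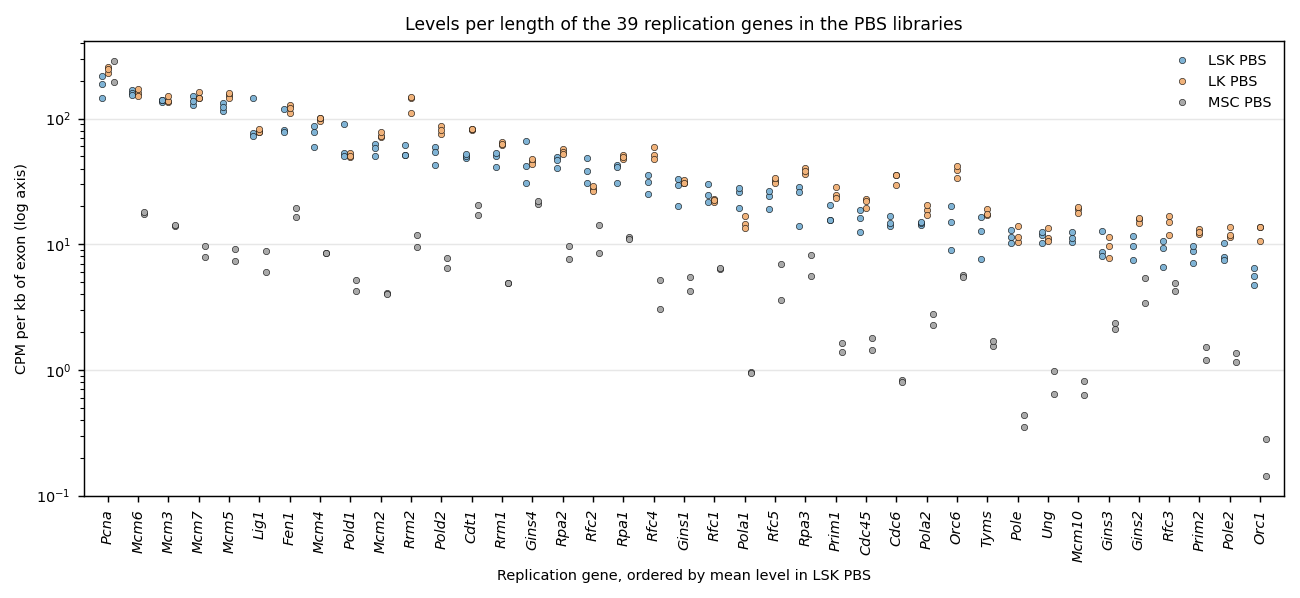
Level of each of the 39 replication genes per length (CPM per kb of exon, log axis) in every PBS library of LSK, LK and MSC cells, with genes ordered by their mean in LSK PBS and 1 point per library. LSK and LK points lie near each other along the whole order and MSC points lie below them for every gene but Pcna, whose MSC libraries lie at the level of the LSK and LK libraries.

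Some of these genes varied widely within a group. In LSK PBS the highest library stood 1.39 times above the lowest for the median gene, from 1.05 times for Mcm3 to 2.22 times for Orc6. Lig1, the ligase of Okazaki fragments, was at 327.3, 616.0 and 311.2 CPM in the 3 LSK PBS libraries, and Pold1, the catalytic subunit of polymerase delta, at 256.7, 435.6 and 246.0 CPM. LSK PBS replicate 2 was the library apart in both. Across the 39 genes it was the highest of the 3 for 13 and the lowest for 20. The spread was smaller in LK PBS, where the median gene differed by 1.121 times between its highest and lowest library.

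The first comparison asked how replication genes differ between committed progenitors and stem-enriched cells of PBS-treated Jak2V617F mice. Of the 39 genes, 12 were called higher in LK than in LSK cells and 1 was called lower, where a call needs both an adjusted p below 0.05 and a change of more than 0.5 on the log2 scale (edgeR's quasi-likelihood test, Benjamini-Hochberg over 12737 genes). This is 30.8% of the replication genes higher, where 12.8% of all genes tested were, and 2.56% lower, where 18.4% were. All LK libraries stood above all LSK libraries for 25 genes (64.1%, against 22.8% of all genes) and below them for 2, Rfc2 and Pola1 (5.13%, against 27.3%). The median log2 fold change was 0.42, and -0.04 over all genes. In bulk libraries fewer cells of a type and less RNA per cell cannot be told apart, and the populations also differed in lineage markers: 12 of 12 erythroid progenitor markers were called higher in LK cells and 10 of 10 stem cell markers lower. The part of these cells in the result was not tested.

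The licensing genes differed as a group. All 4 were called higher in LK cells, with log2 fold changes of 0.74 to 1.40 and LK libraries above all LSK libraries in each. Orc6 (ENSMUSG00000031697, chr8:85299632-85308278), the smallest subunit of the origin recognition complex, was at 37.0, 22.3 and 49.5 CPM in LSK PBS and at 95.4, 102.6 and 82.6 CPM in LK PBS. Its log2 fold change was 1.40 ± 0.27 (SE, adjusted p = 0.0056 by edgeR). Orc1 (ENSMUSG00000028587, chr4:108579423-108614833) was at 22.3, 16.5 and 19.6 CPM in LSK PBS and 47.5, 47.6 and 36.8 CPM in LK PBS, a log2 fold change of 1.21 ± 0.20 (adjusted p = 0.00306 by edgeR). Cdc6 (ENSMUSG00000017499, chr11:98907801-98923940), the ATPase that recruits the helicase to origins with Cdt1, was at 87.4, 72.3 and 77.7 CPM in LSK PBS and at 185.7, 186.7 and 154.0 CPM in LK PBS. The change on the log2 scale was 1.18 ± 0.15 (adjusted p = 0.000898 by edgeR). In each of these genes the lowest LK library lay well above the highest LSK library. Cdt1, which escorts the helicase to the origin, made up the rest of the group with a log2 fold change of 0.74 ± 0.13 (adjusted p = 0.00348 by edgeR).

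None of the 6 MCM subunits, the helicase that these factors load, was called. Their log2 fold changes lay between 0.03 and 0.44, all positive, with all LK libraries above all LSK libraries for Mcm2, Mcm4 and Mcm5. Mcm6 (chr1:128331590-128359664), singled out here after its values were seen, was at 789.9, 751.4 and 721.3 CPM in LSK PBS and at 741.2, 706.6 and 802.7 CPM in LK PBS, so that the groups overlapped. Its log2 fold change was 0.03 ± 0.15 (adjusted p = 0.911 by edgeR). Of the genes with an E2F word in their window, Cdc6, Cdt1, Orc1 and Rfc3 were called higher in this comparison and Pola1 lower. The others, Mcm5 and Mcm6 among them, were not called. Whether the words bear on the levels was not tested.

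Among the partners that activate the helicase, 2 of 6 were called higher. Mcm10 (ENSMUSG00000026669, chr2:4989714-5012791), which joins the helicase to polymerase alpha, was at 96.6, 79.3 and 85.7 CPM in LSK PBS and 146.5, 151.3 and 135.9 CPM in LK PBS. The change on the log2 scale was 0.76 ± 0.14 (adjusted p = 0.00454 by edgeR). Gins2 (ENSMUSG00000031821, chr8:120578633-120589304), a subunit of the GINS complex, was at 39.7, 30.8 and 48.0 CPM against 65.2, 60.0 and 66.1 CPM, a log2 fold change of 0.72 ± 0.20 (adjusted p = 0.0231 by edgeR). The libraries did not overlap for either gene. The GINS complex has 4 subunits in equal parts, but the log2 fold changes of Gins1, Gins3 and Gins4 were 0.19, 0.00 and 0.01, with overlapping libraries, and Cdc45 was not called at 0.48.

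The clamp loader was also uneven. Rfc4 (ENSMUSG00000022881, chr16:23113943-23127737), a small subunit of the loader, was at 38.3, 48.0 and 54.2 CPM in LSK PBS and 90.6, 78.3 and 73.0 CPM in LK PBS. The log2 fold change was 0.82 ± 0.19 (adjusted p = 0.0108 by edgeR). Rfc3 (ENSMUSG00000033970, chr5:151642756-151651242) was at 33.7, 23.9 and 38.0 CPM against 54.5, 60.1 and 43.1 CPM, a log2 fold change of 0.75 ± 0.22 (adjusted p = 0.0323 by edgeR). Both rose without overlap. Rfc2, another small subunit of the same complex, had all LK libraries below all LSK libraries, with a log2 fold change of -0.47 ± 0.18 that was not called (adjusted p = 0.0845 by edgeR). The large subunit Rfc1 and the clamp Pcna were not called, at -0.15 and 0.45, and Rfc5 had an adjusted p of 0.0461 by edgeR but a log2 fold change of 0.49, under the threshold.

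The 8 genes of primase and the polymerases included the only gene called lower. Pola1 (ENSMUSG00000006678, chrX:93304767-93632155), the catalytic subunit of polymerase alpha, was at 228.9, 248.0 and 170.5 CPM in LSK PBS and 126.6, 117.8 and 146.8 CPM in LK PBS, with no overlap. Its log2 fold change was -0.69 ± 0.18 (adjusted p = 0.0193 by edgeR). The primase subunits that form a complex with it moved the other way. Prim1 (ENSMUSG00000025395, chr10:128015168-128030037), which makes the RNA primer, was at 60.1, 60.6 and 78.9 CPM against 95.8, 111.2 and 89.7 CPM, a log2 fold change of 0.60 ± 0.17 (adjusted p = 0.0273 by edgeR), and Prim2 was also called, at 0.59. Pold2 (ENSMUSG00000020471, chr11:5872180-5878292), a regulatory subunit of polymerase delta, was at 113.4, 81.6 and 102.7 CPM against 166.3, 144.0 and 154.7 CPM, a log2 fold change of 0.68 ± 0.16 (adjusted p = 0.0136 by edgeR). The catalytic subunit Pold1 had a log2 fold change of -0.31 and overlapping libraries, and Pola2, Pole and Pole2 were not called, at 0.38, 0.08 and 0.56.

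Rrm2 (ENSMUSG00000020649, chr12:24708241-24714146), the small subunit of ribonucleotide reductase, whose amount follows S phase, had the lowest adjusted p of the 39 genes. It was at 171.3, 141.6 and 143.2 CPM in LSK PBS and at 403.0, 412.6 and 307.2 CPM in LK PBS. The log2 fold change was 1.33 ± 0.17 (adjusted p = 0.000885 by edgeR), whereas the large subunit Rrm1 (0.42) and the thymidylate synthase gene Tyms (0.57) were not called. Ung, the only gene of its role and called in no comparison, was at 65.1, 55.6 and 67.9 CPM in LSK PBS and 60.8, 57.5 and 73.2 CPM in LK PBS, a log2 fold change of 0.06 ± 0.17 (adjusted p = 0.829 by edgeR). Lig1, Fen1 and the 3 RPA genes were not called, with log2 fold changes of -0.26 to 0.77.

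The lists around replication are read against the same shares of all genes, 12.8% called higher and 18.4% called lower. Of 37 further replication genes, chosen by function with earlier results of these data known, 13 were called higher and none lower. By edgeR 20 of the 37 had a p under 0.05 before adjustment, as did 5499 of all 12737 genes. The largest of the 13 were Recql4, a helicase needed to start replication (log2 fold change 1.57), and the origin recognition subunits Orc5 (1.41) and Orc2 (1.22). Of 16 E2F factors, their partners and S-phase cyclins, 6 were called higher and 2 lower. Cyclin E1 (Ccne1), which drives entry into S phase, was higher by 3.05, the E2F factor E2f4 by 1.496 and the retinoblastoma gene Rb1 by 1.21. E2f7 and Rbl2 were lower (-0.89 and -0.53). Of 20 mitosis genes 3 were called higher, Cenpa (1.25), Plk1 (0.74) and Ccnb1 (0.69), and 1 lower, Cenpf (-0.88), counts near or below the shares of all genes. The median log2 fold change was 0.49 for the further replication genes, 0.45 for the E2F list and 0.14 for the mitosis genes.

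The calls of this comparison changed with the library left out, and why was not tested. Without LK PBS replicate 1, 6 genes were called higher and none lower, and without LK PBS replicate 2 or LSK PBS replicate 1 the call of Pola1 was also lost. All 4 licensing genes, Mcm10 and Rrm2 were the 6 called when LK PBS replicate 1 was left out.

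The same populations were then compared with IL-1β. No replication gene was called higher in LK than in LSK cells and 1, Lig1, was called lower, where 4.14% of 11743 genes were higher and 4.18% lower. By edgeR 14 of the 39 genes had a p under 0.05 before adjustment, as did 3263 of all 11743 genes. DESeq2 and limma-voom each called 1 of the 39 higher, Rrm2. All LK libraries stood above all LSK libraries for 15 genes (38.5%, against 31.2% of all genes) and below for 11 (28.2%, against 28.3%), and the median log2 fold change was 0.14, with 0.02 over all genes. Lig1 (ENSMUSG00000056394, chr7:13277283-13311433) was at 500.9 and 494.6 CPM in LSK IL-1β and at 261.8 and 288.7 CPM in LK IL-1β, a log2 fold change of -0.86 ± 0.17 (adjusted p = 0.0309 by edgeR). Rrm2 was at 159.4 and 256.3 CPM against 384.8 and 447.1 CPM, without overlap, and its log2 fold change of 1.01 ± 0.25 missed the threshold (adjusted p = 0.0517 by edgeR). Orc1 (0.85) and Orc6 (0.72) were not called either.

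In PBS same-numbered LSK and LK libraries correlated in their deviations from the group means at 0.118 to 0.421. LSK 2, however, correlated more with LK 1 (0.154) than with LK 2 (0.118). The pairing is thus an assumption, under which the replicate number was also used as a block. With the block Orc1, Orc6 and Rrm2 were called higher under IL-1β, 3 genes in place of 0, and Lig1 was still called lower. With 2 libraries per group the counts swung widely with the library left out, which leaves an arm with a single library. The shares of all genes called with the block or without a library are not given here. These counts are therefore not read as a result about the 39 genes. The median log2 fold change of the 39 genes ran from 0.01 to 0.34 when each of the 4 libraries was left out in turn. Called among the other lists were Orc3 (1.11), Orc2 (0.96) and Recql4 (0.96) higher and Rnaseh2a (-0.95) lower of 37 further replication genes, Ccne1 (1.94), E2f8 (1.21) and Rb1 (1.17) higher of 16 of the E2F list, and no mitosis gene.

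**Figure D2:**
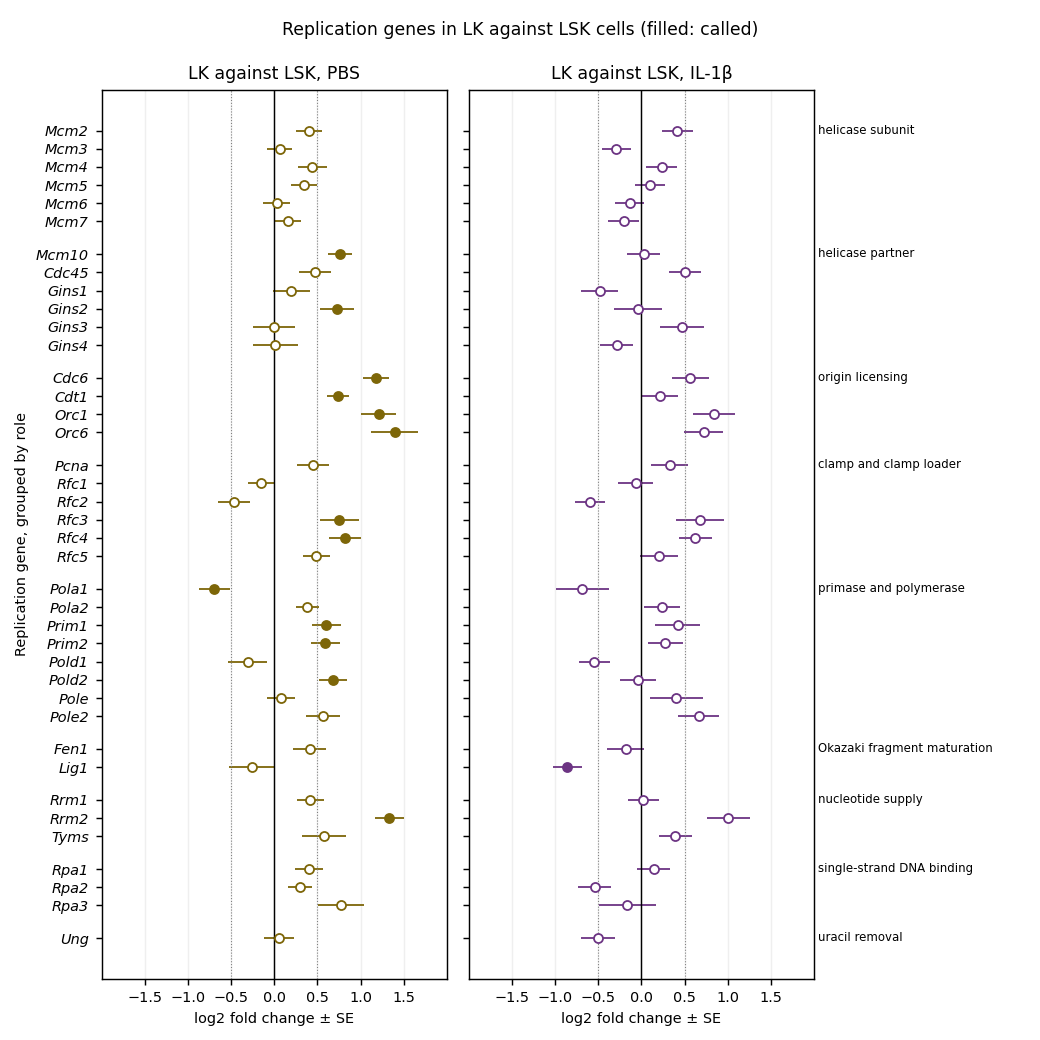
Log2 fold change of LK against LSK cells with its standard error (horizontal bars) for each replication gene, grouped by role, in PBS-treated (left) and IL-1β-treated (right) mice; filled points are called and dotted lines mark 0.5 in either direction. Under PBS Orc6, Rrm2, Orc1 and Cdc6 lie farthest to the right and Pola1 is the only filled point on the left, and under IL-1β Lig1 is the only filled point.

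**Figure D3:**
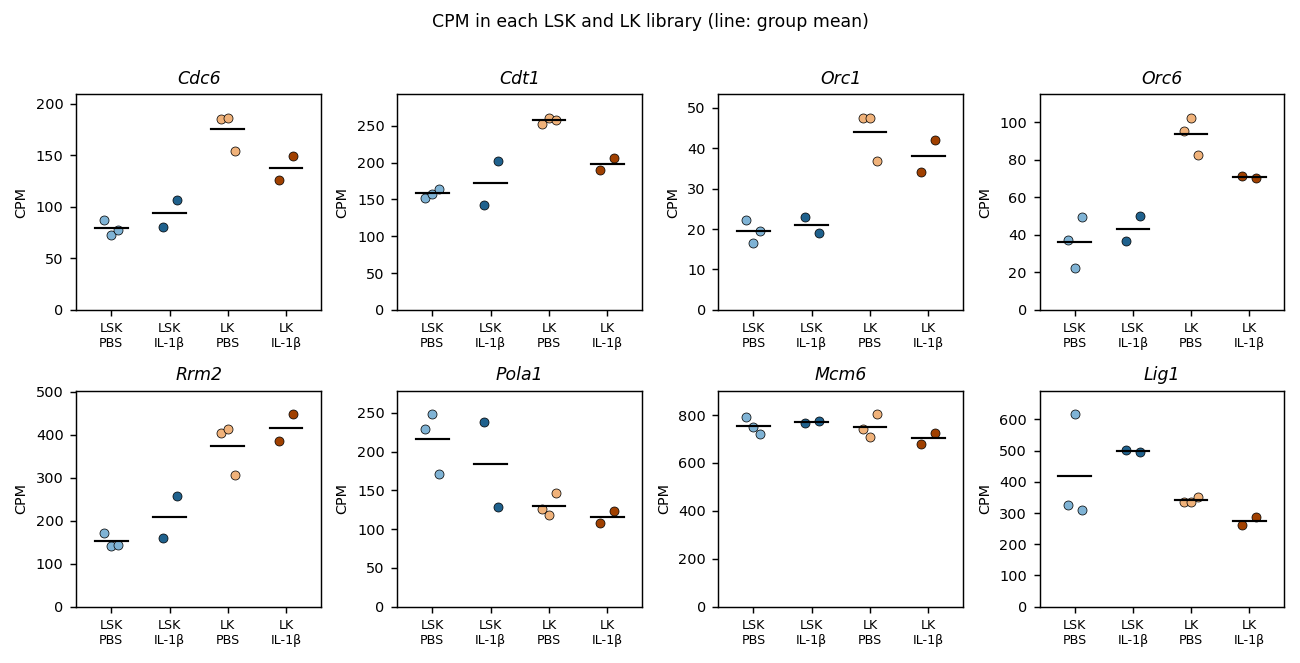
CPM of 8 replication genes in each LSK and LK library (points, axis from 0) with the group mean as a line. Cdc6, Cdt1, Orc1, Orc6 and Rrm2 stand higher in every LK PBS library than in any LSK PBS library, Mcm6 stands at about the same level in all groups, and the highest Lig1 point is 1 LSK PBS library at 616.0 CPM.

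The next comparisons asked what IL-1β did to these genes in the mice. In LSK cells no replication gene was called in either direction, where 0.32% of 13132 genes were higher and 0.312% lower. By edgeR 4 of the 39 genes had a p under 0.05 before adjustment, a smaller share than the 2431 of all 13132 genes. The lowest adjusted p of the 39 was 0.185 by edgeR. DESeq2 and limma-voom called none, and a fit over all 10 LSK and LK libraries called Pold2 and Rpa2 higher. That fit called 547 of all genes higher and 681 lower, where the fit of LSK libraries alone called 42 and 41. Log2 fold changes ranged from -0.75 to 0.72 with a median of 0.13 (-0.06 over all genes), and their standard errors from 0.23 to 0.41. Both IL-1β libraries stood above all PBS libraries for 7 genes (17.9%, against 16.7% of all genes) and below for 2 (5.13%, against 22.8%). The 7 were Mcm3, Mcm7, Mcm10, Gins1, Pold2, Rpa2 and Ung, and the 2 were Gins3 and Pole.

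The 4 genes with an unadjusted p under 0.05 are named after their values were seen. Pold2 was at 113.4, 81.6 and 102.7 CPM with PBS and at 136.9 and 181.6 CPM with IL-1β, and its log2 fold change was 0.72 ± 0.25. Gins1 was at 30.6, 50.4 and 45.2 CPM against 60.8 and 75.0 CPM, and Rpa2, the middle subunit of RPA, at 121.9, 148.5 and 139.1 CPM against 184.1 and 233.1 CPM. Pole was lower, at 145.8, 114.7 and 126.6 CPM against 96.3 and 51.7 CPM. Their adjusted p was 0.185 to 0.238 by edgeR. Mcm6, at 768.6 and 774.2 CPM with IL-1β, had a log2 fold change of 0.07 ± 0.24, and Ung was at 73.6 and 88.5 CPM, a log2 fold change of 0.40 ± 0.24 (adjusted p = 0.395 by edgeR). None of the further replication genes, the E2F list or the mitosis genes was called in LSK cells, where 3, 1 and 4 of them had a p under 0.05 before adjustment. In the same libraries the summed level of 10 neutrophil progenitor markers was 2209 to 3211 CPM with PBS and 10085 and 12108 CPM with IL-1β, that of the stem cell markers 1306 to 1845 CPM against 852.4 and 938.7 CPM, and that of 8 lymphoid markers 102.8 to 354.7 CPM against 3.43 and 7.84 CPM. Only 2 of the 8 lymphoid markers had enough counts to be tested, and 1 was called lower. The part of these cell types in the result was not tested.

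In LK cells no replication gene passed both thresholds, where 6.77% of 12835 genes were higher with IL-1β and 2.57% lower. By edgeR 12 of the 39 had a p under 0.05 before adjustment, as did 3176 of all 12835 genes, and DESeq2 and limma-voom called none of the 39. Most of the 39 stood slightly lower with IL-1β: both IL-1β libraries lay below all 3 PBS libraries for 21 genes (53.8%, against 22.4% of all genes) and above them for 2, Cdc45 and Rfc1 (5.13%, against 23.4%). The sizes were small, from -0.43 to 0.31 on the log2 scale with a median of -0.18 (-0.03 over all genes) and standard errors of 0.09 to 0.20. Summed over the 39 genes the level was 8876 to 9055 CPM with PBS and 7731 and 8523 CPM with IL-1β. IL-1β replicate 1 was the lower of the 2 IL-1β libraries for 35 of the 39 genes.

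Cdt1 came nearest to a call. It was at 253.0, 261.5 and 258.7 CPM with PBS and at 190.6 and 207.0 CPM with IL-1β, and the log2 fold change of -0.37 ± 0.09 passed the adjusted p (0.0369 by edgeR) but not the fold threshold. The other licensing genes had log2 fold changes of -0.40 (Orc6), -0.34 (Cdc6) and -0.21 (Orc1), of which only Orc1 had overlapping libraries. Rrm2 went the other way, at 403.0, 412.6 and 307.2 CPM against 384.8 and 447.1 CPM, a log2 fold change of 0.15 ± 0.14 with overlapping libraries. Ung was at 60.8, 57.5 and 73.2 CPM against 54.9 and 59.4 CPM (log2 fold change -0.16 ± 0.14, adjusted p = 0.521 by edgeR). None of the further replication genes, E2F list and mitosis genes was called, and 9, 7 and 2 of them had a p under 0.05 before adjustment. In these libraries the neutrophil progenitor markers summed to 4542 to 9805 CPM with PBS and 18928 and 22212 CPM with IL-1β (10 of 10 markers above in both libraries), the erythroid progenitor markers to 5472 to 7316 and to 3515 and 3985 CPM, and 5 mast cell and basophil markers to 139.7 to 378.1 and to 1149 and 2243 CPM. The part of these cells in the result was not tested.

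The difference between the responses of LK and LSK cells was tested over all 10 libraries. No replication gene was called, and 0.0217% of 13839 genes were called higher and 0.00723% lower, so this test called few genes of any kind. By edgeR 4 of the 39 had a p under 0.05 before adjustment, as did 1967 of all 13839 genes. DESeq2 called 2 of the 39, Mcm10 and Rpa2, lower. Without LSK PBS replicate 2 edgeR called 1, Lig1, lower. The response was lower in LK than in LSK cells for 32 of the 39 genes, with a median difference of -0.25 on the log2 scale (0.12 over all genes). The lowest adjusted p was 0.202 by edgeR, for Rpa2, with a difference of -0.80 ± 0.24. These differences use the same libraries as the comparisons of LK with LSK cells.

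**Figure D4:**
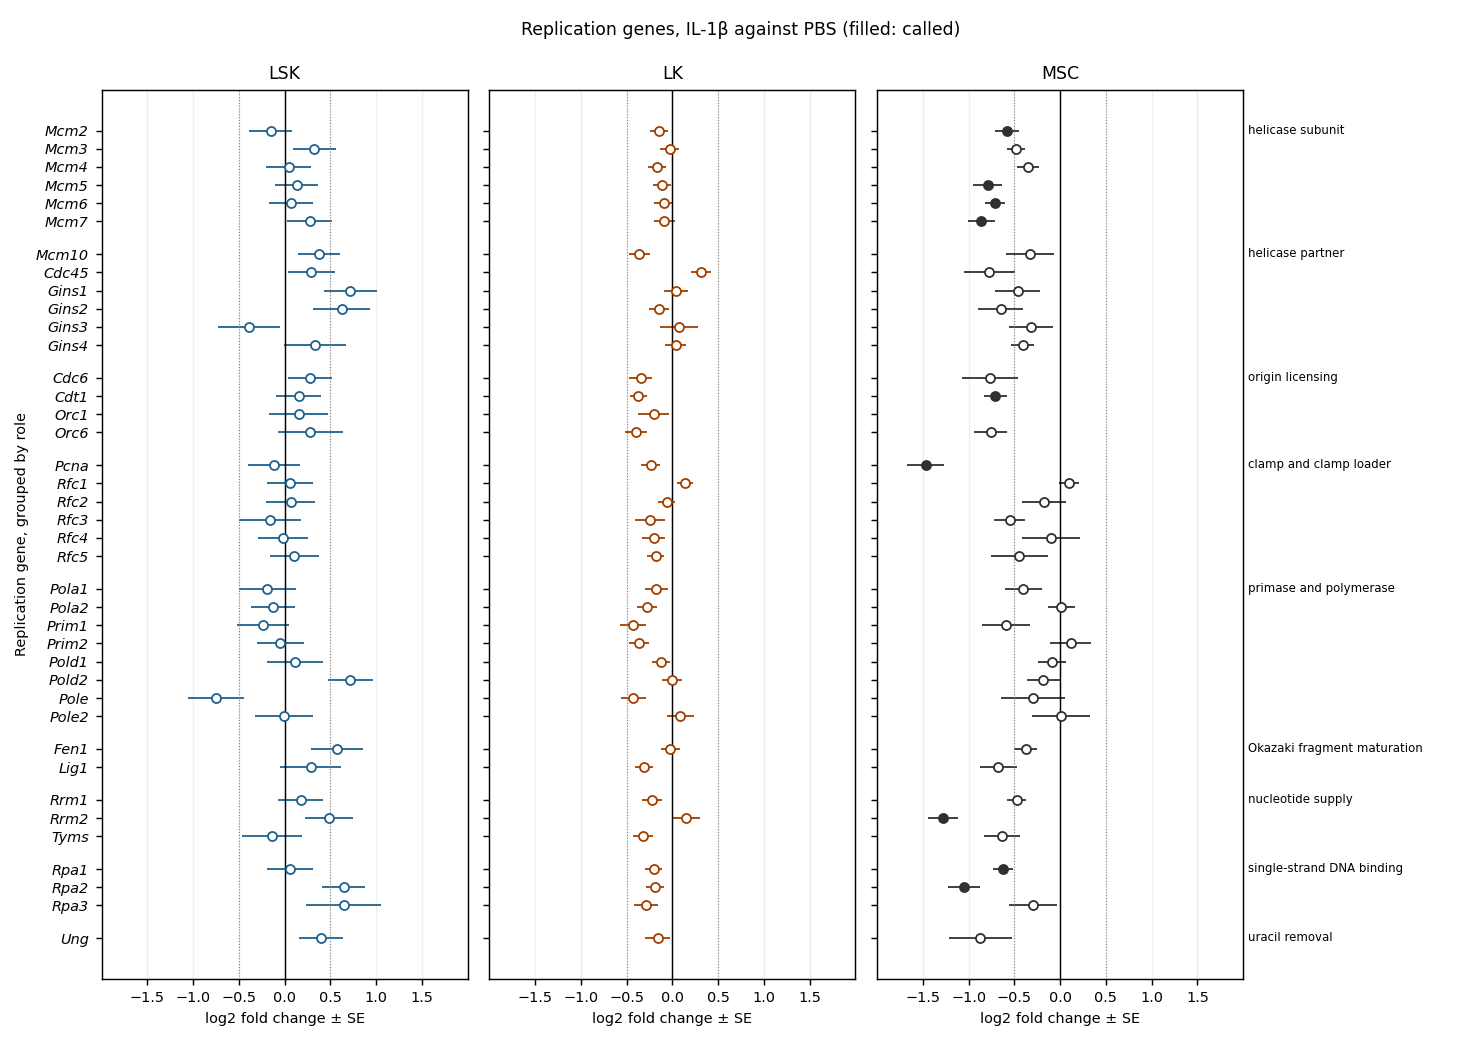
Log2 fold change of IL-1β against PBS with its standard error (horizontal bars) for each replication gene, grouped by role, in LSK cells, LK cells and MSC; filled points are called and dotted lines mark 0.5 in either direction. LSK points scatter on both sides of 0 with wide bars, LK points lie slightly to the left with short bars, and in MSC most points lie to the left, with 9 filled. Orc1 has no MSC point.

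In cultured MSC 9 of the 38 replication genes tested were called lower after 72 h of IL-1β (23.7%, against 4.31% of 13239 genes) and none higher (7.14% of all genes). Orc1, at 0.500 and 0.979 CPM with PBS and 0.721 and 0.706 CPM with IL-1β, had too few counts to be tested. The lower genes were the helicase subunits Mcm2, Mcm5, Mcm6 and Mcm7, the licensing gene Cdt1, the clamp gene Pcna, the reductase gene Rrm2 and the RPA genes Rpa1 and Rpa2. Both IL-1β libraries stood below both PBS libraries for 27 genes (71.1%, against 29.8% of all genes) and above for 1, Rfc1 (2.63%, against 31.3%). The median log2 fold change was -0.48 (0.00 over all genes), and 34 of 38 were negative. Over all genes the calls split into 945 higher and 570 lower, and with upper-quartile scaling into 817 higher and 831 lower. All 9 genes were called lower under that scaling too.

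Pcna (ENSMUSG00000027342, chr2:132249162-132253314), which rings the DNA and holds the polymerase on it, had the most negative log2 fold change with all 4 libraries, though Rrm2 did without PBS replicate 3 (-1.44, against -1.17 for Pcna). It was at 467.2 and 682.8 CPM with PBS and 216.6 and 197.9 CPM with IL-1β. The change on the log2 scale was -1.47 ± 0.20 (adjusted p = 0.0119 by edgeR). Of the loader that places it on DNA none of the 5 RFC genes was called, with log2 fold changes of -0.55 to 0.10. Rrm2 was at 32.5 and 26.4 CPM against 11.8 and 12.3 CPM, a log2 fold change of -1.28 ± 0.16 (adjusted p = 0.00979 by edgeR). Rpa2 (ENSMUSG00000028884, chr4:132768332-132778752) was at 22.8 and 28.9 CPM against 13.1 and 11.9 CPM, a log2 fold change of -1.05 ± 0.17 (adjusted p = 0.0197 by edgeR). Rpa1 (ENSMUSG00000000751, chr11:75298166-75348324), the large subunit that binds DNA, was at 63.4 and 61.0 CPM against 38.0 and 42.8 CPM. Its log2 fold change was -0.62 ± 0.11 (adjusted p = 0.0255 by edgeR).

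The helicase, none of whose subunits was called between LSK and LK cells, had 4 of its 6 subunits called lower in MSC, and all 6 subunits had both IL-1β libraries below both PBS libraries. Mcm7 (ENSMUSG00000029730, chr5:138164583-138172422) was at 42.52 and 35.02 CPM with PBS and 22.1 and 20.1 CPM with IL-1β. The change on the log2 scale was -0.86 ± 0.15 (adjusted p = 0.0216 by edgeR). Its exons overlap those of the microRNA genes Mir25 and Mir93 on the same strand. Mcm5 (ENSMUSG00000005410, chr8:75109569-75128439) was at 36.5 and 29.1 CPM against 18.2 and 19.5 CPM (-0.79 ± 0.16, adjusted p = 0.0316 by edgeR), and Mcm6 at 80.7 and 83.9 CPM against 47.6 and 53.3 CPM (-0.71 ± 0.11, adjusted p = 0.0169 by edgeR). Mcm2 completed the called subunits at -0.58, Mcm3 passed the adjusted p (0.0366 by edgeR) but not the fold threshold at -0.48, and Mcm4 was at -0.35. Cdt1 (ENSMUSG00000006585, chr8:122568015-122573554) was at 53.5 and 64.6 CPM against 35.7 and 37.0 CPM, a log2 fold change of -0.71 ± 0.13 (adjusted p = 0.0259 by edgeR).

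No gene of the polymerase group was called. Among the 8 genes of primase and the polymerases the log2 fold changes ran from -0.59 to 0.11 with a median of -0.14, and libraries overlapped for 6 of 8. Lig1 and Fen1 were not called, at -0.68 and -0.38, and neither were the 6 helicase partners, at -0.78 to -0.32, for each of which both IL-1β libraries were below both PBS libraries. Cdc6, Orc6, Tyms, Rrm1 and Rpa3 were not called either, at -0.77, -0.76, -0.64, -0.48 and -0.30. Ung was at 3.501 and 5.347 CPM against 2.59 and 2.29 CPM (log2 fold change -0.87 ± 0.34, adjusted p = 0.155 by edgeR), a low level at which few counts stand behind each value.

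**Figure D5:**
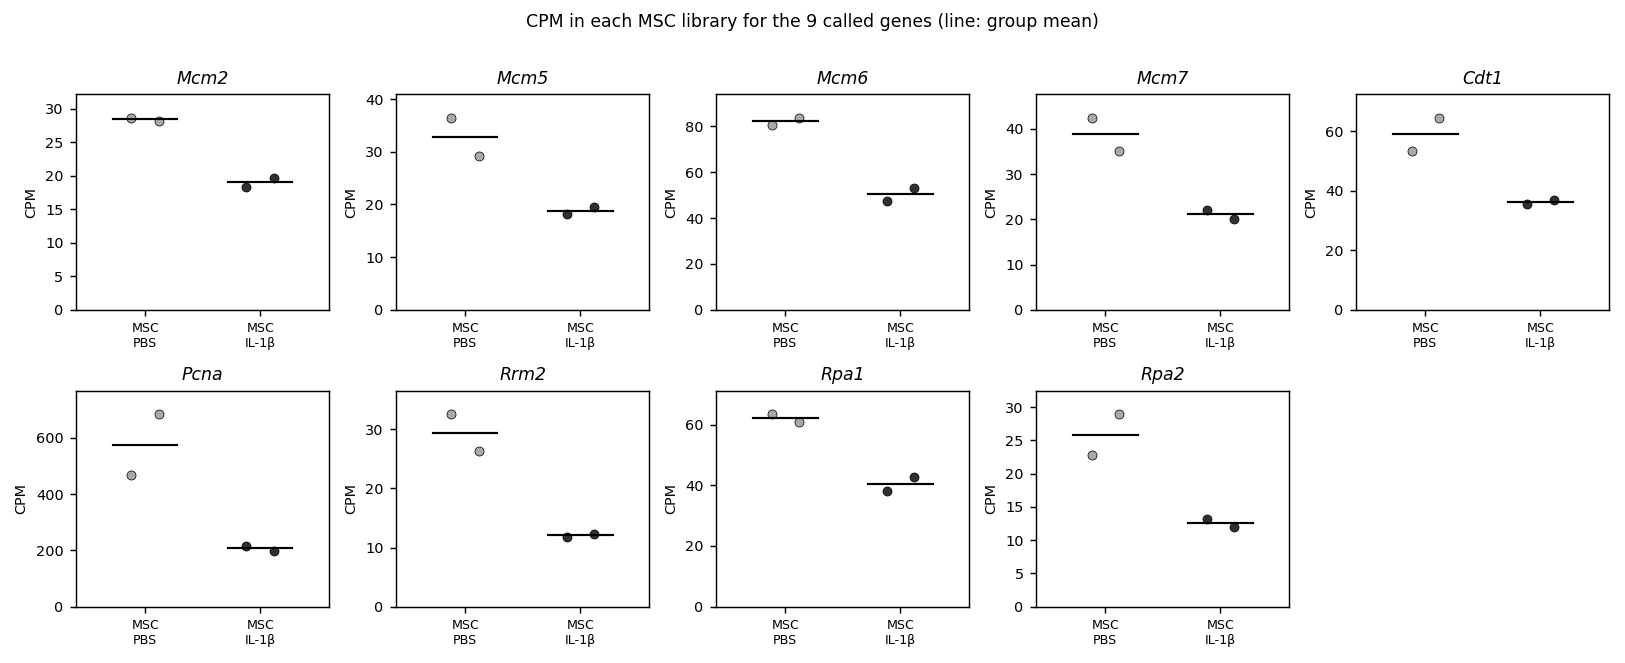
CPM of the 9 replication genes called lower in MSC with IL-1β, in each MSC library (points, axis from 0) with the group mean as a line. In each gene both IL-1β libraries lie below both PBS libraries, and the distance is widest for Pcna.

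Mitosis genes fell in the same cultures. Of 20 mitosis genes 7 were called lower, where 4.31% of all genes were, and all 20 had negative log2 fold changes with a median of -0.82. The largest falls were those of Birc5 (-1.61), Mki67 (-1.35) and Kif23 (-1.34), genes of the chromosomal passengers, of chromosome surfaces and of the final cut between daughter cells. Of 37 further replication genes 2 were called lower, the thymidine kinase gene Tk1 (-1.19) and Tipin (-0.82), and none higher, and of the 16 genes of the E2F list cyclin A2 (Ccna2, -0.98) was the only call. Both counts are near the share of all genes called lower. The further replication genes nevertheless had a median of -0.38, with 30 negative and 7 positive values. For 23 of the 37 both IL-1β libraries lay below both PBS libraries, where 29.8% of all genes did, and for 3 they lay above. The E2F list had a median of -0.08 and 7 positive values. In the same libraries the macrophage markers summed to 8054 and 11615 CPM with PBS and 26662 and 27658 CPM with IL-1β, with 7 of 8 markers above in both IL-1β libraries, and the mesenchymal markers to 1419 and 2872 CPM and to 3724 and 4248 CPM. How far the makeup of the cultures carried the fall of the replication genes was not tested. The number called changed with the library left out: it was 17 without PBS replicate 2, 11 without PBS replicate 3, and 0 without either IL-1β library, where 0 and 2 of all genes were called lower.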

How the data were processed

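RNA sequencing counts were analysed for 14 libraries (LSK, LK and MSC cells, PBS or IL-1β), grouped by their labels. The authors trimmed reads with fastp 0.20.0, aligned them to GRCm38 with HISAT2 2.0.1 (SAMtools 1.10 is also named) and, per the file headers, counted read pairs per gene in reverse-stranded mode with featureCounts 2.0.2 on Ensembl release 100 genes. The methods instead name GenomicAlignments. The deposited values are raw counts, and no filter or normalization was found in them. Gene lengths are the other deposited values, given by the authors in bases of exon. The command in the header sets no option to count read pairs shared between genes, which affects overlapping genes and paralogs. A further IL-1β MSC library named in a header was not analysed here. Symbols and coordinates came from GENCODE M21 of the same build, which named 55141 of the 55487 genes.

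The quasi-likelihood test of edgeR 4.0.16 (robust glmQLFit and glmQLFTest after filterByExpr and TMM, R 4.3.3) was run on all genes of the counts, adjusted by Benjamini-Hochberg and called at an adjusted p under 0.05 with a log2 fold change over 0.5 in size, after the study's thresholds. The standard error is the log2 fold change divided by the square root of F. LSK and LK counts come from separate tables and were put together as raw counts. Alternatives were DESeq2 1.42.0, limma-voom (limma 3.58.1), other scalings, filters and thresholds, thinning to the lowest library total, a joint fit, a replicate block and each library left out. The fits were checked on simulated counts. Figures were drawn with matplotlib 3.10.9.

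The 39 genes and all lists were chosen with earlier results of these data known. Full values are given for called genes (at most 3 per role and comparison, by size of log2 fold change), and, for a role with no call, for its gene of highest level per length in LSK PBS. Of other lists, called genes are named, at most 3 per direction. Genes singled out beyond this rule (Mcm6 in LSK and LK cells, Lig1 and Pold1 across LSK PBS libraries, Pcna across populations, Cdt1 and Rrm2 in LK cells, the 4 genes of lowest p in LSK cells and subunits of the same complexes) were named after their values were seen.

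Whether replicate numbers pair LSK and LK libraries was checked by the correlation of deviations from the group means over 13839 genes. It was 0.161, 0.118 and 0.421 for the 3 PBS numbers and 0.115 for the IL-1β numbers. In an IL-1β group of 2 libraries the deviations mirror each other, so both IL-1β numbers give the same value. Among differently numbered PBS libraries it was -0.342 to 0.154, and LSK 2 correlated more with LK 1 (0.154) than with LK 2. The rule of a correlation over 0.1 in every pair was met, and the pairing was assumed from these and the shared numbers of the labels. PCR copies are not independent molecules, and library totals of 4393233 to 30871055 set the counting precision.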

Additional observations from a re-analysis of the deposited data

Results flagged for a closer look

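For 7 replication genes every IL-1β library moved one way in LSK or in LK cells and the other way in MSC, a difference between groups that was not tested and that sets 16 weeks of injections in mutant mice beside 72 h in wild-type culture. The share of all genes that did so was not counted. In LSK cells alone 17.9% of the 39 genes had every IL-1β library above, against 16.7% of all genes. In LK cells 5.13% did, against 23.4%, and in MSC 71.1% had them below, against 29.8%. Between LSK cells and MSC, where the LSK libraries were higher and the MSC libraries lower, the log2 fold changes differed by 0.81 for Mcm3, 1.14 for Mcm7, 0.71 for Mcm10, 1.19 for Gins1, 1.70 for Rpa2 and 1.28 for Ung. In LK cells Mcm10 (-0.36) and Rpa2 (-0.19) had both IL-1β libraries below all PBS libraries, as in MSC, and Mcm3, Mcm7, Gins1 and Ung had overlapping libraries. Between LK cells and MSC they differed by 1.09 for Cdc45, which was at 80.8, 76.9 and 68.0 CPM in LK PBS, 90.8 and 95.9 CPM in LK IL-1β, 5.00 and 6.33 CPM in MSC PBS and 3.54 and 3.09 CPM in MSC IL-1β. Of these genes only Mcm7 and Rpa2 were called in MSC, and none was called in LSK or LK cells.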

How the results depend on the processing

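For the genes called, 252 of 293 values under other settings stayed past both thresholds, 41 no longer passed and 0 changed sign. Among 261 recomputed counts and medians 239 kept to within 1.5 times (counts) or the genes' median standard error (medians), and every median kept its sign. A count of 0 under both settings was taken as kept, and nearly all counts in LSK cells were of this kind. The share kept thus says little about the counts that were not 0. Under IL-1β, LK against LSK cells, DESeq2 and limma-voom called 1 gene higher, and no filter on low counts gave 3 higher and 2 lower. In the difference of responses DESeq2 called 2 lower. The joint fit of LSK and LK called 2 of the 39 genes higher in LSK cells, and 547 of all genes. In LK cells dropping the fold threshold gave 1 lower, Cdt1. The cause of these changes was not tested. Leaving out 1 library at a time gave, for LK against LSK cells, 6 to 16 genes higher and 0 to 1 lower under PBS and 0 to 13 higher and 0 to 7 lower under IL-1β, 0 to 17 lower in MSC and 0 to 1 lower in the difference of responses. An arm of 2 libraries then holds 1, assumed to vary like the other groups. The shares of all genes called in these fits are not set beside these counts.

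With the replicate number as a block, LK against LSK cells under IL-1β gave 3 genes higher in place of 0, and under PBS 14 higher in place of 12, all 12 among them. For IL-1β against PBS, given to different mice, same-numbered libraries correlated at -0.12 to 0.16, and the block gave 1 gene lower in LK cells, Prim1, and none in LSK cells. It changed no other count, and the shares of all genes called with the block are not given here. No paired analysis was possible because the MSC groups share only 1 replicate number. Over all genes upper-quartile scaling turned the split of LK against LSK calls under IL-1β from 486 higher and 491 lower into 416 and 632. In LSK cells DESeq2 called 417 genes higher and 488 lower where edgeR called 42 and 41. In LSK and LK cells the IL-1β libraries held the fewest read pairs, and in MSC PBS replicate 2 did. Changes well above their standard error could also go uncalled. Pold2 in LSK cells, at 0.72 ± 0.25 with IL-1β, had an adjusted p of 0.185 by edgeR.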
